A study of Homo sapiens with 9 samples.

Results

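Long noncoding RNAs (lncRNAs) are transcripts that are not translated, and 9 of them with a long record in tumour biology were followed here in ovarian cancer cells: MALAT1, NEAT1, PVT1, TUG1, KCNQ1OT1, OIP5-AS1, H19, MEG3 and HOTAIR. They were chosen by name, with earlier results of these data known. All 9 were found among the 58735 genes of the deposited count table, once each. Only 6 of the 9 passed the filter on low counts and were tested. H19, MEG3 and HOTAIR did not.

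RNA was sequenced from SKOV3, a human ovarian carcinoma cell line, in 3 groups of 3 libraries. WT CDK9 cells expressed wild-type CDK9, the kinase subunit of P-TEFb that releases paused RNA polymerase II into elongation. ALK inhibitor-treated WT CDK9 cells were the same kind of cells after 24 h with an inhibitor of the receptor tyrosine kinase ALK. Tyr19Phe CDK9 cells expressed Y19F CDK9, in which the tyrosine at position 19 is replaced by phenylalanine and cannot be phosphorylated. The comparisons set inhibitor-treated cells, or cells with the phosphorylation site removed, against WT CDK9 cells. The study describes stable SKOV3 lines expressing introduced WT or Tyr19Phe CDK9, in several experiments after depletion of the cells' own CDK9. It also reports less CDK9 protein in Tyr19Phe CDK9 cells. Effects of the mutation and differences between the lines therefore cannot be told apart. The inhibitor, its dose for these libraries, and whether each line was 1 clone are not given in the sources used here. Nothing in the labels says that libraries of a group were separate cultures, so p-values measure the spread between these libraries, which may be technical.

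Most of the 9 RNAs act in the nucleus. MALAT1 is concentrated in nuclear speckles, where splicing factors are stored, and NEAT1 is the scaffold on which paraspeckles are built. KCNQ1OT1, H19 and MEG3 come from imprinted clusters, PVT1 lies beside MYC, HOTAIR lies in the HOXC cluster and is described as a partner of chromatin-modifying complexes, and TUG1 and OIP5-AS1 are widely expressed RNAs described as regulators of chromatin and as binders of proteins and miRNAs.

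MALAT1 and NEAT1 are neighbours on chromosome 11 and, as background, MALAT1 and the long isoform of NEAT1 have a 3′ end that is cut by RNase P upstream of a tRNA-like small RNA instead of being polyadenylated in the usual way. Their 3′ ends are shown because the main comparison below turns on these RNAs. In hg38, on the plus strand, the MALAT1 stretch is chr11:65506065-65506172 and the NEAT1 stretch is chr11:65445484-65445597. Capitals mark bases that are identical in a local alignment of the pair, 5′ to 3′, and small letters mark the rest.
MALAT1: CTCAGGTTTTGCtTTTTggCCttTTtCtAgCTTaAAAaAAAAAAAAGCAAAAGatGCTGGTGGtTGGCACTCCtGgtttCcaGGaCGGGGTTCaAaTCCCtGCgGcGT
NEAT1: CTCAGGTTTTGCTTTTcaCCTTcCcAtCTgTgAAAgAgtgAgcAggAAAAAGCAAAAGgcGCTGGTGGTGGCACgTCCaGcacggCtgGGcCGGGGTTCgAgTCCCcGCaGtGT
The alignment had 118 columns, of which 82 (69.5%) held the same base. Both stretches open with a U-rich run, written here as T, and then hold an A-rich run before the tRNA-like part. The longest unbroken run of A was 13 bases in MALAT1 and 5 in NEAT1. The MALAT1 stretch includes 56 of the 57 bases of the small RNA annotated at chr11:65506117-65506173, a model with 0 counts in every library, which ends 343 bases before the deposited end of MALAT1. The NEAT1 stretch runs 57 bases past the deposited end of NEAT1. Reads over these ends cannot be seen in a table of counts per gene.

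RefSeq's table of promoters (GRCh38.p14; 250 bases before and 50 after a start) had entries for MALAT1, TUG1, OIP5-AS1, H19 and MEG3. The MALAT1 windows are shown because MALAT1 was the lncRNA of the 9 whose level differed between WT CDK9 and Tyr19Phe CDK9 cells. Window 1 is chr11:65497488-65497787 and window 2 is chr11:65498795-65499094, both on the plus strand. Capitals mark the GC box (GGGCGG or its complement CCGCCC) in window 1 and the TATA box (TATAAA) in window 2.
MALAT1 window 1: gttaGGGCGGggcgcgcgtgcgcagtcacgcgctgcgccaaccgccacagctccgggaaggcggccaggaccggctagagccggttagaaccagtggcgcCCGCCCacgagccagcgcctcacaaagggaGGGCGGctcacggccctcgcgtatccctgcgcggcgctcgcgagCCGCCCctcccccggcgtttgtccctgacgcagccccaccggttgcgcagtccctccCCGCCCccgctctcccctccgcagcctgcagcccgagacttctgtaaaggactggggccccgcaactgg
MALAT1 window 2: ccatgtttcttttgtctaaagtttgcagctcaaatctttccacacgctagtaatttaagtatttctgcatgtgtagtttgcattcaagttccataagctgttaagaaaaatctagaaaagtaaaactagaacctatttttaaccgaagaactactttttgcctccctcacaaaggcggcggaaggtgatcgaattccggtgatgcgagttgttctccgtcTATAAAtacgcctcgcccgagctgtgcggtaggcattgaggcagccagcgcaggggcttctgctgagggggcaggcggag
Window 1 had a GC content of 73.7%, 37 CpG dinucleotides and 5 GC boxes. Window 2 had a GC content of 46%, 14 CpG dinucleotides and 1 TATA box, 30 bases before the start. Over all 35116 promoter windows of the table the median GC content was 58.7% and the median number of CpG dinucleotides was 14. On either strand, 45% of them held GGGCGG, 11.5% held TATAAA, 34.6% held CCAAT and 7.26% held the E-box CACGTG. The TUG1 window held 4 GC boxes, 2 CCAAT boxes and 1 E-box, and the OIP5-AS1 window held 1 GC box, 2 CCAAT boxes and 1 E-box. These are matches of letters only.

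Library totals ranged from 18169050 to 29320184 counts, and 3 counts, taken as the floor, corresponded to 0.102 to 0.165 CPM (counts scaled to 1000000 per library). Depth was split by group. The Tyr19Phe libraries had 26485891 to 29320184 counts, and the WT CDK9 and inhibitor-treated libraries had 18169050 to 20974903. In comparisons with Tyr19Phe CDK9 cells, depth and group therefore cannot be told apart, and the part of depth was not tested. This floor covers counting error only. The 9 RNAs together took 0.0821% to 0.0976% of the counts of a library, and all lncRNA classes together took 0.909% to 0.988%. Genes with at least 1 count ranged from 19944 in ALK inhibitor replicate 2 to 22744, with 20635 in Tyr19Phe replicate 3, and these libraries are left out together in an alternative given with the results. Mitochondrial genes took 1.73% (WT replicate 2) to 3.12% (Tyr19Phe replicate 3) of counts. All 5 SKOV3 markers were present in every library, with KRT8 at 1260 to 1726 CPM, KRT18 at 129 to 184 CPM and PAX8 at 257 to 281 CPM. ERBB2 had means of 1800 CPM in WT CDK9, 2625 CPM in inhibitor-treated and 1470 CPM in Tyr19Phe CDK9 cells, and EPCAM had means of 21.2, 20.9 and 12 CPM. Of the fibroblast markers, PDGFRA and LUM stayed below 1 CPM, and COL1A1 fell from a mean of 104 CPM in WT CDK9 cells to 37.9 CPM in Tyr19Phe CDK9 cells, so that the sum of the 3 markers was 103 to 107 CPM in WT CDK9, 115 to 149 CPM in ALK inhibitor-treated and 31.5 to 45.4 CPM in Tyr19Phe libraries. The leukocyte and endothelial markers (PTPRC, CD68, PECAM1 and VWF) each stayed at or below 0.641 CPM. The part of ERBB2, EPCAM, COL1A1 and the mitochondrial share in the results below was not tested. In bulk RNA, fewer cells of a kind and less RNA per cell cannot be told apart.

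The level of the 9 RNAs spanned the whole range from abundant to undetected. Per kilobase of deposited gene length, averaged over the 9 libraries, MALAT1 stood at 40.4 CPM per kb, TUG1 at 16.9, OIP5-AS1 at 15.2, NEAT1 at 6.66, PVT1 at 0.866 and KCNQ1OT1 at 0.0387 CPM per kb. Among the 2047 tested lncRNAs, these levels ranked 8 for MALAT1, 24 for TUG1, 28 for OIP5-AS1, 91 for NEAT1, 955 for PVT1 and 2040 for KCNQ1OT1. TUG1 and OIP5-AS1 were the closest neighbours in this order. In WT CDK9 cells TUG1 was at 17.4, 15.5 and 16.5 CPM per kb and OIP5-AS1 at 15.6, 15.3 and 15.7 CPM per kb, and the values of the pair overlapped, whereas in both other groups every TUG1 value was above every OIP5-AS1 value. No other neighbours in this order overlapped in any group.

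The deposited lengths differ in kind. MALAT1 (8829 bases), NEAT1 (22767 bases), TUG1 (10151 bases) and KCNQ1OT1 (91667 bases) are counted over their whole deposited span, while the counted length was 1.79% of the span for PVT1 and 49.2% for OIP5-AS1. Counts per gene do not separate the long isoform of NEAT1 from shorter ones, so its level and rank per kb depend on the isoforms present. The positions in hg38 are chr11:65497688-65506516 (plus) for MALAT1, chr11:65422774-65445540 (plus) for NEAT1, chr22:30969245-30979395 (plus) for TUG1, chr15:41283990-41309737 (plus) for OIP5-AS1, chr8:127794533-128101253 (plus) for PVT1 and chr11:2608328-2699994 (minus) for KCNQ1OT1. KCNQ1OT1 lies wholly inside KCNQ1, a potassium channel gene on the opposite strand, and OIP5-AS1 overlaps the OIP5 gene on the opposite strand over 1.83% of its span. The strand setting of the counting is not given in the sources used here, so reads of KCNQ1OT1 and KCNQ1 cannot be told apart with certainty. KCNQ1 had 228 counts over all libraries and KCNQ1OT1 713. OIP5-AS1 also shares 99.9% of its span with a protein-coding model on the same strand that had 0 counts.

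H19 and HOTAIR were at 0 counts in all 9 libraries, and MEG3 had 1 count, in WT replicate 2. H19 is a maternally expressed imprinted RNA (chr11:1995176-2001470, minus), MEG3 is a maternally expressed imprinted RNA (chr14:100779410-100861031, plus) and HOTAIR lies in the HOXC cluster (chr12:53962308-53974956, minus). A count of 0 allowed a level of up to 0.102 to 0.165 CPM, depending on the library. The neighbours IGF2 of H19, DLK1 and MEG8 of MEG3, and HOXC11, HOXC12 and HOXC13 of HOTAIR were at 0 counts as well. Other neighbours were not: over the 9 libraries HOXC9 had 77 counts, HOXC8 had 13, HOXC10 had 4, RTL1 beside MEG3 had 3 and MRPL23 beside H19 had 5172. The miRNA genes MIR675, MIR770 and MIR2392 inside H19 and MEG3 also had 0. The small RNA models inside the expressed MALAT1, NEAT1 and TUG1 had 0 counts too, so these values cannot show whether H19 and MEG3 were silent.

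**Figure D1:**
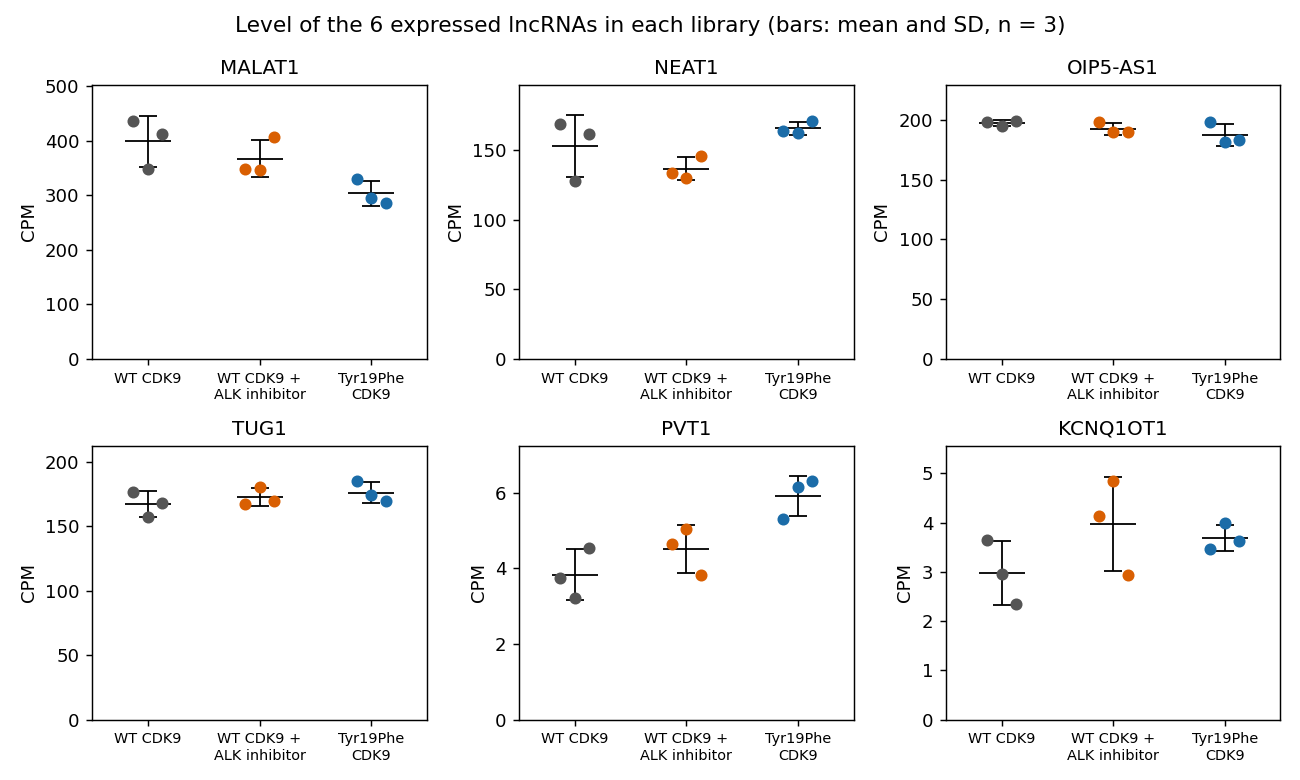
Level in CPM (vertical axes, starting at 0) of the 6 expressed lncRNAs in each library of the 3 groups, with the mean and SD of 3 libraries as bars. MALAT1 is lowest in the Tyr19Phe CDK9 libraries (287 to 330 CPM), PVT1 is highest there (5.32 to 6.30 CPM), and OIP5-AS1 and TUG1 stay within 182 to 199 and 157 to 185 CPM.

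MALAT1 was lower in Tyr19Phe CDK9 cells. It stood at 437, 348 and 412 CPM in WT CDK9 cells, at 349, 347 and 407 CPM in ALK inhibitor-treated cells, and at 330, 296 and 287 CPM in Tyr19Phe CDK9 cells. Every Tyr19Phe library was below every other library, whereas the WT CDK9 and inhibitor-treated libraries overlapped. The mean fell from 399 ± 46.2 CPM (SD, n = 3) to 304 ± 22.8 CPM (n = 3), a fold of 0.763 and a log2 fold change of -0.39 (SE 0.06; 95% interval -0.52 to -0.26), with an adjusted p of 1.64e-05 in edgeR's quasi-likelihood test with Benjamini-Hochberg adjustment. MALAT1 was the only member of the 9 called in this comparison (1 of 6 tested), where 18% of all 16350 tested genes were called (10.4% lower, 7.61% higher) and 3.32% of the tested lncRNAs. Groups that did not overlap were found for 32.6% of all tested genes. The call held under each of the 19 alternatives run, with log2 fold changes from -0.48 to -0.32. The Tyr19Phe library with the lowest MALAT1 was also the library with the highest mitochondrial share, and with that library and ALK inhibitor replicate 2 left out MALAT1 remained the only member called.

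NEAT1, MALAT1's neighbour, did not share this change. It stood at 169, 128 and 162 CPM in WT CDK9 cells, at 133, 130 and 146 CPM in ALK inhibitor-treated cells, and at 164, 162 and 171 CPM in Tyr19Phe CDK9 cells. The WT CDK9 libraries spanned the inhibitor-treated values and overlapped those of Tyr19Phe CDK9 cells. The log2 fold change in Tyr19Phe CDK9 against WT CDK9 cells was 0.12 (SE 0.07; adjusted p = 0.252 in edgeR's quasi-likelihood test), with a 95% interval of -0.02 to 0.25.

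PVT1, a spliced RNA transcribed next to MYC, had higher values in Tyr19Phe CDK9 cells that did not pass the threshold. It had 73, 61 and 85 counts in WT CDK9 cells (3.75, 3.22 and 4.54 CPM), 98, 92 and 74 counts in inhibitor-treated cells (4.65, 5.05 and 3.82 CPM), and 157, 173 and 167 counts in Tyr19Phe CDK9 cells (5.32, 6.16 and 6.30 CPM). Every Tyr19Phe library was above every other library. The fold against WT CDK9 cells was 1.54 (log2 0.63, SE 0.23, 95% interval 0.16 to 1.09), with an adjusted p of 0.0518 in edgeR's quasi-likelihood test. The adjusted p ranged from 0.0392 to 0.171 over the 19 alternatives, and 6 of them called PVT1 higher. MYC itself had a mean of 118 CPM in WT CDK9 cells (SD 8.34, n = 3) and of 105 CPM in Tyr19Phe CDK9 cells (SD 3.19, n = 3) (log2 -0.17, adjusted p = 0.0585 in the same edgeR fit).

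TUG1, OIP5-AS1 and KCNQ1OT1 were not called between WT CDK9 and Tyr19Phe CDK9 cells. TUG1 was at 177, 157 and 168 CPM in WT CDK9 and at 185, 174 and 169 CPM in Tyr19Phe CDK9 cells, and the 95% interval of its log2 fold change was -0.03 to 0.18. OIP5-AS1 was at 198, 195 and 199 CPM in WT CDK9 and at 198, 182 and 183 CPM in Tyr19Phe CDK9 cells, with an interval of -0.17 to 0.02. For both RNAs the groups overlapped, and these intervals leave room only for small differences. KCNQ1OT1, the unspliced antisense RNA that silences genes of its imprinted cluster, had 44 to 71 counts in WT CDK9 and 96 to 112 counts in Tyr19Phe CDK9 libraries. Scaled to CPM its groups overlapped (2.35 to 3.64 against 3.45 to 3.99 CPM), and the interval of its log2 fold change, -0.26 to 0.87, was wide. KCNQ1, the gene around it, had a log2 fold change of -0.94 (SE 0.55; adjusted p = 0.267 in edgeR's test).

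**Figure D2:**
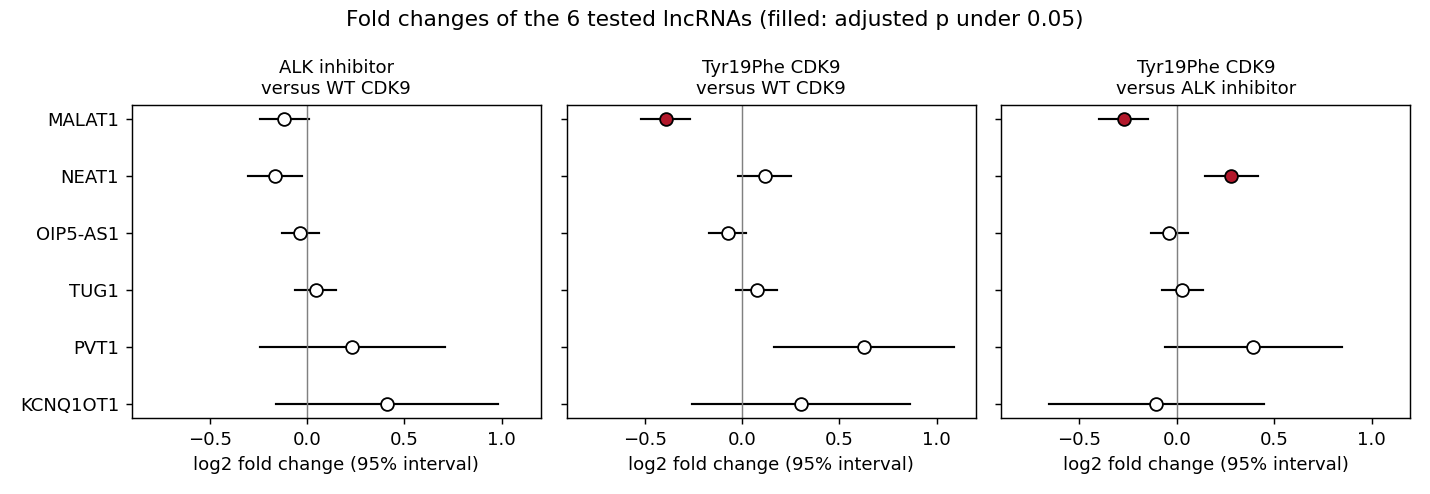
Log2 fold change (horizontal axis) with its 95% interval for the 6 tested lncRNAs in the 3 comparisons, filled red where the adjusted p in edgeR's test was under 0.05. MALAT1 is filled in both comparisons with Tyr19Phe CDK9 (-0.39 and -0.27), NEAT1 only against the inhibitor (0.28), and the low-count PVT1 and KCNQ1OT1 have the widest intervals.

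None of the 9 RNAs was called after 24 h of ALK inhibitor. In this comparison, 4.55% of all tested genes (2.73% lower, 1.82% higher) and 1.07% of tested lncRNAs were called by edgeR's quasi-likelihood test, and 19.6% of tested genes had groups that did not overlap. The 447 lower and 297 higher genes became 344 lower and 406 higher when libraries were scaled by size alone. At an unadjusted p under 0.05, edgeR had 1 member, NEAT1, and DESeq2 likewise had 1 and called 0. NEAT1 had a mean of 153 ± 22.1 CPM (SD, n = 3) in WT CDK9 and 136 ± 8.29 CPM (n = 3) in inhibitor-treated cells, a log2 fold change of -0.16 (SE 0.07, 95% interval -0.30 to -0.02, adjusted p = 0.217 in edgeR's test). MALAT1 had a log2 fold change of -0.12 (SE 0.06, interval -0.24 to 0.01, adjusted p = 0.379 in the same fit).

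This absence of calls did not hold without WT replicate 2. That library had the lowest MALAT1 (348 CPM) and the lowest NEAT1 (128 CPM) of the WT CDK9 libraries, and also the lowest mitochondrial share of all libraries. Without it, both RNAs were called lower with the inhibitor, MALAT1 with a log2 fold change of -0.20 (adjusted p = 0.0353) and NEAT1 with -0.27 (adjusted p = 0.00197, edgeR's quasi-likelihood test).

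The other 4 RNAs had no call with the inhibitor under any alternative. OIP5-AS1 was at 198, 190 and 189 CPM (interval of the log2 fold change -0.13 to 0.06) and TUG1 at 167, 181 and 170 CPM (interval -0.06 to 0.15). PVT1 (log2 0.23, SE 0.23) and KCNQ1OT1 (log2 0.41, SE 0.28) had low counts and wide intervals. KCNQ1OT1 was at 4.13, 4.83 and 2.95 CPM in inhibitor-treated cells, so its spread within this group (SD 0.954 CPM) was about as large as its difference from the WT CDK9 mean (3.97 against 2.98 CPM).

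The direct comparison of Tyr19Phe CDK9 cells with inhibitor-treated cells separated MALAT1 and NEAT1. MALAT1 was lower in Tyr19Phe CDK9 cells (fold 0.828, log2 -0.27, SE 0.06, adjusted p = 0.0014) and NEAT1 was higher (fold 1.21, log2 0.28, SE 0.07, 95% interval 0.14 to 0.42, adjusted p = 0.00233), both in edgeR's quasi-likelihood test. For both, the libraries of the groups did not overlap. These were 2 of 6 tested members, where 20.7% of all tested genes (11.1% lower, 9.57% higher) and 4.49% of tested lncRNAs were called, and 34.4% of all tested genes had groups that did not overlap. DESeq2 gave MALAT1 an adjusted p of 0.0678, and without ALK inhibitor replicate 2 and Tyr19Phe replicate 3 NEAT1 had a log2 fold change of 0.23 with an adjusted p of 0.0717. PVT1 did not overlap either (log2 0.39, SE 0.22, adjusted p = 0.236). TUG1 (0.03), OIP5-AS1 (-0.04) and KCNQ1OT1 (-0.11) had log2 fold changes within 1 SE of 0.

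The ratio of NEAT1 to MALAT1 counts within a library does not depend on how libraries are scaled. This ratio was chosen after the values of both RNAs had been seen, and is given as a description, with no test. In WT CDK9 cells it was 0.387, 0.367 and 0.393, and in inhibitor-treated cells 0.382, 0.375 and 0.359. In Tyr19Phe CDK9 cells it was 0.496, 0.549 and 0.597, above all other libraries. WT replicate 2, low in both RNAs, did not stand apart in the ratio, whose coefficient of variation in WT CDK9 cells was 3.47% against 11.6% for MALAT1 and 14.4% for NEAT1. The mean ratio was 0.382 ± 0.0133 (SD, n = 3) in WT CDK9, 0.372 ± 0.0119 in inhibitor-treated and 0.547 ± 0.0501 in Tyr19Phe CDK9 cells. The geometric mean of the ratio in Tyr19Phe CDK9 cells was 1.43 times that of WT CDK9 cells and 1.47 times that of inhibitor-treated cells. Between inhibitor-treated and WT CDK9 cells the ratio differed by a fold of 0.973.

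**Figure D3:**
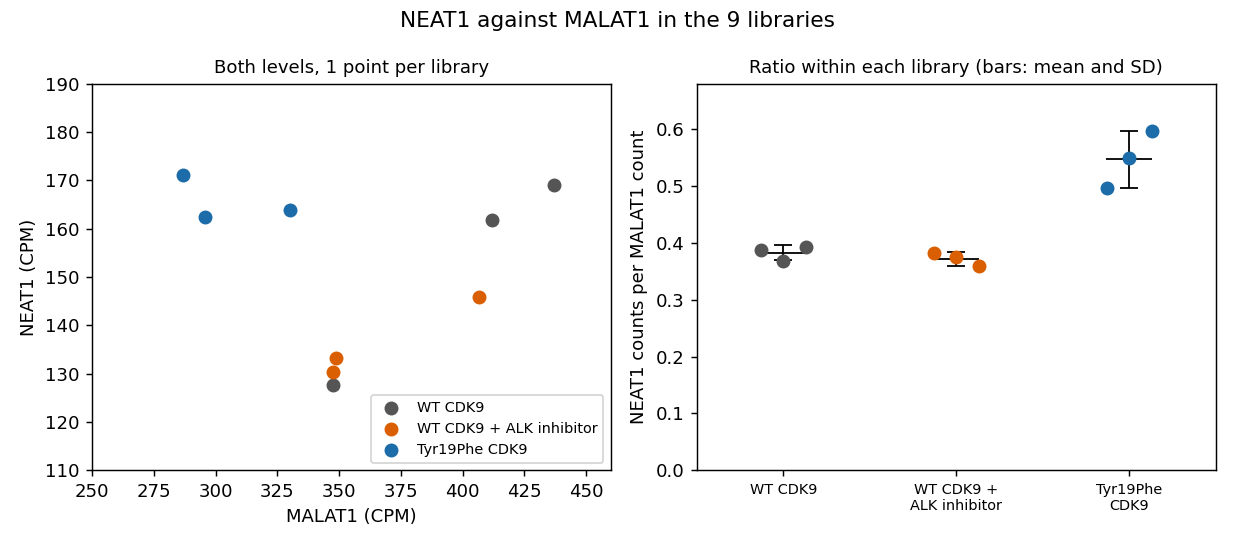
Left, NEAT1 against MALAT1 in CPM, 1 point per library on axes that do not start at 0. Right, NEAT1 counts per MALAT1 count in each library with the mean and SD of 3 libraries. The WT CDK9 and inhibitor-treated libraries lie between 0.359 and 0.393, and the Tyr19Phe CDK9 libraries between 0.496 and 0.597.

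In Tyr19Phe CDK9 against WT CDK9 cells, called genes around MALAT1 were about as frequent as among all tested genes. More of them were called higher than lower, whereas 10.4% of all tested genes were called lower and 7.61% higher. NEAT1 ends 52.148 kb before MALAT1 starts. Of 79 other genes tested within 1 Mb of MALAT1, 2 were called lower and 12 higher in Tyr19Phe CDK9 against WT CDK9 cells (17.7%, beside 18% of all tested genes), their median log2 fold change was 0.04, and 10 had a lower value than MALAT1. Within 5 Mb there were 233 tested genes, with 17 called lower and 34 higher (21.9%). For the other RNAs the windows of 5 Mb had medians of 0.17 around TUG1 (75 genes, 1 lower and 23 higher, 32% called), -0.08 around OIP5-AS1 (114 genes, 16 lower and 2 higher, 15.8%), 0.09 around KCNQ1OT1 (106 genes, 9 lower and 13 higher, 20.8%) and -0.02 around PVT1 (33 genes, 3 lower and 2 higher, 15.2%). The log2 fold changes of TUG1 (0.08), OIP5-AS1 (-0.07), KCNQ1OT1 (0.30) and NEAT1 (0.12, window median 0.07) had the sign of their window's median. Those of MALAT1 (-0.39, window median 0.07) and PVT1 (0.63) had the opposite sign, and PVT1 was above 31 of its 33 neighbours. The median over all tested genes was 0.0035.

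**Figure D4:**
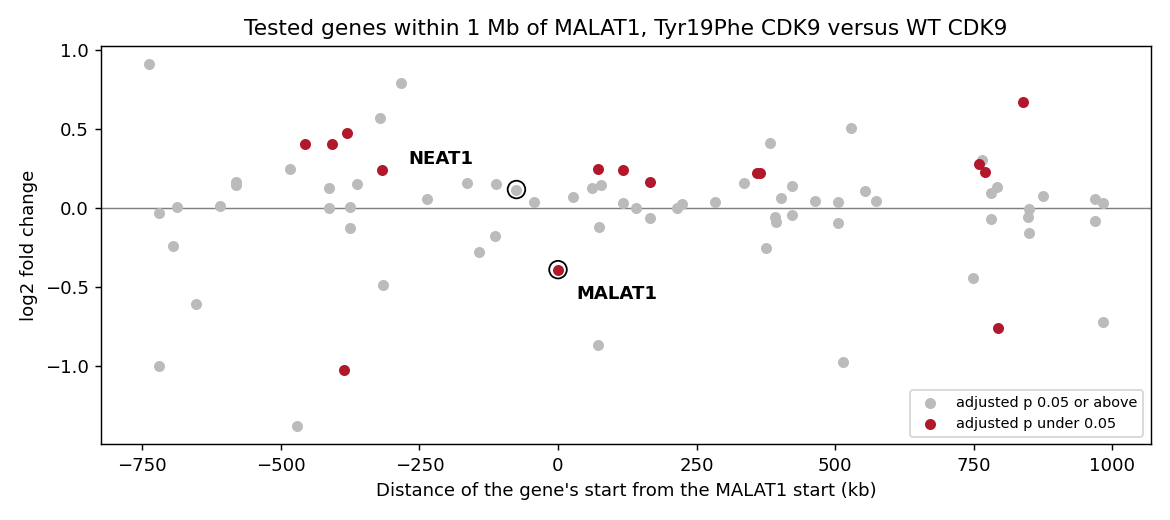
Log2 fold change in Tyr19Phe CDK9 against WT CDK9 cells (vertical axis) of tested genes within 1 Mb of MALAT1, by the distance of their start from the MALAT1 start in kb (horizontal axis). Red points had an adjusted p under 0.05 in edgeR's test. MALAT1 (-0.39) lies below NEAT1 (0.12), and 12 of the 14 other called genes are above 0.

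Another 60 lncRNAs described in cancer were followed as a list, of which 55 were in the table and 37 were tested. With the inhibitor 2 of them were called, both lower, and in Tyr19Phe CDK9 against WT CDK9 cells 4 were called, all higher. These shares, 5.41% and 10.8% of the 37, stand beside 4.55% and 18% of all tested genes. Both comparisons share the WT CDK9 libraries. UCA1, an RNA named for its discovery in urothelial carcinoma, was called in all 3 comparisons and moved to opposite sides of WT CDK9. It was at 173, 154 and 152 CPM in WT CDK9 cells, at 110, 113 and 112 CPM with the inhibitor and at 192, 188 and 196 CPM in Tyr19Phe CDK9 cells, and no groups overlapped. The inhibitor gave it a log2 fold change of -0.52 (SE 0.05, adjusted p = 2.01e-08), Tyr19Phe CDK9 gave 0.27 (SE 0.05, adjusted p = 2.54e-04), and the direct contrast gave 0.78 (SE 0.05, adjusted p = 3.62e-13), all in edgeR's quasi-likelihood test. SNHG1, a host of small nucleolar RNAs, fell with the inhibitor (-0.21, adjusted p = 0.0253 in the same fit). EPB41L4A-AS1 (0.84), MIR100HG (0.59) and CRNDE (0.31) rose in Tyr19Phe CDK9 against WT CDK9 cells. Of the 4 calls in that comparison, 1 was left without Tyr19Phe replicate 2, and 2 were left without WT replicate 1 or without WT replicate 3. With the inhibitor, 1 of the 2 calls was left without WT replicate 1, ALK inhibitor replicate 1 or ALK inhibitor replicate 2. With libraries scaled by size alone, 1 of the 2 was left and 1 other gene of the list was called higher. DESeq2, and the fit without WT replicate 3, kept both calls and called 1 gene of the list higher.

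In the direct comparison, 6 of the 37 lncRNAs were higher and 1 was lower in Tyr19Phe CDK9 than in inhibitor-treated cells, a share of 18.9% beside 20.7% of all tested genes. Without ALK inhibitor replicate 2, 3 were higher and the rest were not called. Of the 6, the snoRNA hosts GAS5 (log2 0.30), SNHG7 (0.61), SNHG12 (0.62) and SNHG1 (0.18) stood beside UCA1 and HCP5 (1.28, SE 0.38), an RNA of the HLA region. HCP5 was low, at 5.45 ± 1.39 CPM (SD, n = 3) in Tyr19Phe CDK9 and 2.22 ± 1.65 CPM in inhibitor-treated cells. The snoRNA hosts SNHG15 (0.22), SNHG16 (0.04) and ZFAS1 (-0.0024), also in the list, were not called. HAGLR, a transcript of the HOXD cluster, was lower (-0.50). Over the 37 tested genes the median log2 fold change came to 0.05 for the inhibitor, 0.17 for Tyr19Phe CDK9 against WT CDK9 cells and 0.18 in the direct comparison, beside medians over all tested lncRNAs of -0.03, 0.09 and 0.13. MALAT1 was the exception in direction among the called cancer lncRNAs of Tyr19Phe CDK9 against WT CDK9 cells, the 4 others being higher.

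Paraspeckle proteins, which assemble on NEAT1, were all measured. The list held 20 genes and all 20 were tested. NONO (877 ± 11.2 CPM, SD, n = 3, in WT CDK9 and 858 ± 19.6 CPM in Tyr19Phe CDK9 cells) and PSPC1 (30.1 ± 3.09 and 32.8 ± 1.10 CPM) were not called in any comparison. SFPQ, their DNA- and RNA-binding partner, fell with the inhibitor from 485 ± 6.89 to 439 ± 8.41 CPM (log2 -0.14, adjusted p = 0.0196 in edgeR's test) and was at 488 ± 15.4 CPM in Tyr19Phe CDK9 cells. RBM14 (-0.24), HNRNPH1 (-0.17) and HNRNPA1 (-0.14) also fell with the inhibitor, which made 4 called genes, all lower (20% of the list, beside 4.55% of all tested genes). Of these 4 calls 1 was left with libraries scaled by size alone, 1 without WT replicate 1, 1 without WT replicate 2, 2 without WT replicate 3 or ALK inhibitor replicate 3, and 0 without ALK inhibitor replicate 2.

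In Tyr19Phe CDK9 against WT CDK9 cells 4 paraspeckle protein genes were called, all lower, a share of 20% beside 18% of all tested genes. They were the RNA-binding hnRNP genes HNRNPA1 (-0.28, adjusted p = 1.22e-06), HNRNPH1 (-0.19), HNRNPK (-0.14) and RBMX (-0.14) in edgeR's quasi-likelihood test, and 2 of these calls were left without WT replicate 1 or without Tyr19Phe replicate 3. SFPQ (0.15), RBM14 (0.24), EWSR1 (0.15) and DAZAP1 (0.18) were higher and HNRNPA1 (-0.14) was lower in Tyr19Phe CDK9 than in inhibitor-treated cells, which is 25% of the list beside 20.7% of all tested genes. With ALK inhibitor replicate 2 and Tyr19Phe replicate 3 left out, 1 of these 5 calls was left.

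The list of protein partners and processing factors held 20 genes, all tested. METTL16, which binds the MALAT1 3′ end (24.4 ± 1.68 CPM in WT CDK9, 24.5 ± 2.76 CPM in Tyr19Phe CDK9 cells; SD, n = 3), and ELAC2, the RNase Z that trims tRNA-like 3′ ends (56.5 ± 5.08 and 62.2 ± 1.46 CPM), were not called in any comparison. With the inhibitor, edgeR called 0 of the 20, with 4 at an unadjusted p under 0.05, and DESeq2 called 0, with 5. In Tyr19Phe CDK9 against WT CDK9 cells 5 were called, all lower, a share of 25% beside 18% of all tested genes, and 3 of the calls were left without WT replicate 1, WT replicate 3 or Tyr19Phe replicate 2. RCOR1, the CoREST subunit that joins the demethylase KDM1A to REST, fell from 109 ± 4.34 to 72.9 ± 3.27 CPM (log2 -0.58, SE 0.06, adjusted p = 1.32e-08), and the Polycomb genes SUZ12 (-0.31, adjusted p = 4.2e-05) and EZH2 (-0.23, adjusted p = 0.0179), the repressor REST (-0.21) and the splicing factor SRSF3 (-0.17) fell as well in edgeR's test. RCOR1 (-0.59), REST (-0.23) and SUZ12 (-0.17) were also lower than in inhibitor-treated cells (15% of the list, beside 20.7%), with 2 of the calls left without ALK inhibitor replicate 1, Tyr19Phe replicate 1 or Tyr19Phe replicate 2. The median of the list against WT CDK9 cells was -0.04.

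**Figure D5:**
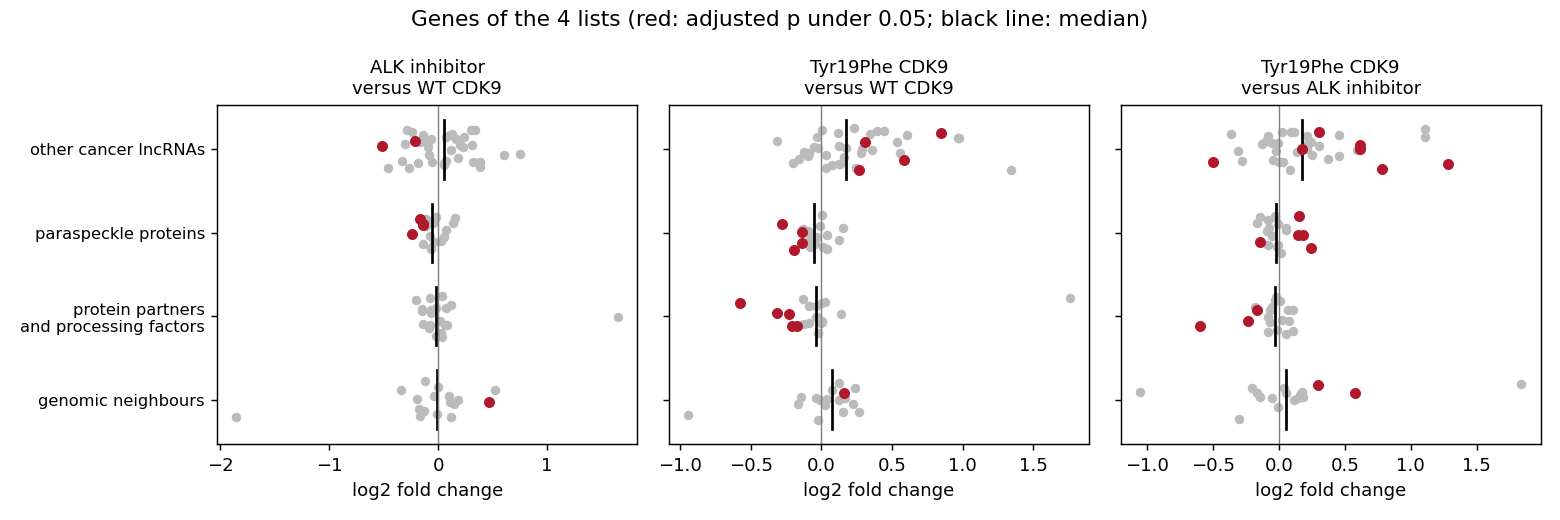
Log2 fold change (horizontal axis, with its own range in each panel) of every tested gene of the 4 lists in the 3 comparisons, red where the adjusted p in edgeR's test was under 0.05, with a black line at the median. In Tyr19Phe CDK9 against WT CDK9 cells the 4 called lncRNAs lie above 0, and the 4 paraspeckle and 5 partner genes called lie below 0.

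The list of genomic neighbours held 29 genes, of which 28 were in the table and 17 were tested. With the inhibitor 1 was called, PHLDA2 of the KCNQ1OT1 cluster, which rose (20.7 ± 3.19 to 28.7 ± 2.35 CPM, SD, n = 3; log2 0.47, adjusted p = 0.0192 in edgeR's test), and the call was lost without WT replicate 1, WT replicate 3, ALK inhibitor replicate 1 or ALK inhibitor replicate 3. That is 5.88% of the tested neighbours, beside 4.55% of all tested genes. In Tyr19Phe CDK9 against WT CDK9 cells, 1 was called, CD81 of the same region, which rose (428 ± 11.3 to 479 ± 9.01 CPM; log2 0.16, adjusted p = 0.00177), again 5.88%, beside 18% of all tested genes. In the direct comparison, TSSC4 (0.30) and MRPL23 (0.58, at 30.3 ± 12.9 against 20.3 ± 2.49 CPM) were higher in Tyr19Phe CDK9 cells, 11.8% beside 20.7%. Neither call was left without ALK inhibitor replicate 1, ALK inhibitor replicate 3 or Tyr19Phe replicate 3, and DESeq2 kept 1. KCNQ1 was not called in any comparison.

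The genes whose levels followed each RNA most closely over the 9 libraries are given as a description, since the points share their groups and scaling. For MALAT1 they were GPC6 (Pearson r 0.979), LINC02593 (0.968) and SON (0.966), a large speckle-associated protein. For NEAT1 they included SPNS1 (0.962) and FLJ45513 (0.936). PVT1 was followed by genes that included COG4 (0.971) and IQGAP3 (0.96), TUG1 by ZNF595 (0.928), GPX4 (0.913) and ERCC6L2 (0.9), KCNQ1OT1 by UBQLN4 (0.947), GLUD1 (0.937) and SPTLC3 (0.923), and OIP5-AS1 by RAB7B (0.981), GLIS3 (0.925) and PI4K2B (0.923). None of the 9 RNAs was among the 3 most alike of another.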

How the data were processed

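RNA was extracted from SKOV3 cells and sequenced by a company (Illumina protocols). The authors deposited whole-number counts of reads per gene, without normalization, for 9 libraries. The submitters' processing notes name CASAVA, HISAT2 2.0.5, featureCounts 1.5.0-p3 and hg38 (GRCh38). The annotation release, strandedness and RNA selection are not given in the sources used here. Selection matters for MALAT1 and NEAT1, since mature MALAT1 and the long NEAT1 isoform lack an ordinary poly(A) tail.

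The analysis used edgeR 4.0.16 and limma 3.58.1 under R 4.3.3. Genes passed filterByExpr (minimum count 10, minimum total 15), which left 16350, and were scaled by TMM (factors 0.986 to 1.01). All 9 libraries entered 1 quasi-likelihood fit with a term for each group (6 residual degrees of freedom). Benjamini-Hochberg adjustment covered every tested gene, and an adjusted p under 0.05 was called. DESeq2 1.42.0, the tool named by the study, was an alternative, since edgeR's quasi-likelihood test was the main test for counts here. Other alternatives were scaling by DESeq2 size factors, upper quartile, library size alone or TMM on protein-coding genes, 2 other filters, a replicate block, a fit of the compared groups only, each library left out, and ALK inhibitor replicate 2 with Tyr19Phe replicate 3 left out. The standard error was the absolute log2 fold change divided by the square root of the F statistic. The code was tested on simulated counts.

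Groups and replicate numbers came from the labels. Libraries with the same number did not deviate together (correlations -0.0116 to 0.026) and were not paired. Replicates differed by more than counting noise on average (chi-square per gene 4.27 to 8.84). This average does not show where the difference arose. Repeat sequencing of 1 library, separate preparations of 1 culture and separate cultures cannot be told apart by it. CPM values used TMM-scaled sizes, and log2 CPM values a prior count of 2. The 3′ ends were aligned with Biopython 1.88 in Python 3.11.15, from hg38 sequence, and promoters came from RefSeq. GENCODE 44 has all 9 RNAs on the same chromosome and strand as the deposited table.

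The 9 RNAs and the 4 lists were chosen with earlier results of these data known. The genes named are the 9 RNAs, the called genes of each list (at most 5 per direction and comparison, by adjusted p), genes overlapping a member, and the 3 tested genes most correlated with each member; list genes named with no call, MYC and SNHG1 in the direct comparison were added after their values were seen. Of the genes selected in this way, 2 are not reported here.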

Additional observations from a re-analysis of the deposited data

Results flagged for a closer look

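The direct contrast of both interventions differed for 2 of the 9 RNAs. MALAT1 was lower in Tyr19Phe CDK9 than in inhibitor-treated cells, with a log2 fold change of -0.27 (adjusted p = 0.0014 in edgeR's quasi-likelihood test, 3 of 3 Tyr19Phe libraries below all inhibitor-treated libraries). NEAT1 was higher, with a log2 fold change of 0.28 (adjusted p = 0.00233 in the same fit, 3 of 3 libraries above all inhibitor-treated libraries).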

How the results depend on the processing

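For the 6 tested RNAs, 19 alternatives were run per comparison. MALAT1 in Tyr19Phe CDK9 against WT CDK9 cells was called lower in all 19. The number of RNAs called with the inhibitor, 0, ranged from 0 to 2 when each library was left out. In Tyr19Phe CDK9 against WT CDK9 cells the number, 1, became 2 through PVT1 with upper-quartile scaling (adjusted p = 0.0429), library size alone (0.041) and TMM on protein-coding genes (0.049), all in edgeR, and ranged from 1 to 2 when each library was left out (2 without WT replicate 3, ALK inhibitor replicate 2 or ALK inhibitor replicate 3). In Tyr19Phe CDK9 against inhibitor-treated cells the number, 2, became 1 under DESeq2 and 1 without ALK inhibitor replicate 2 and Tyr19Phe replicate 3. With each library left out, the called genes of the 4 lists ranged from 2 to 7 with the inhibitor (7 in the main result; 2 without WT replicate 1, 2 without ALK inhibitor replicate 2, 4 without ALK inhibitor replicate 3, 2 without both libraries with fewer genes), from 8 to 17 in Tyr19Phe CDK9 against WT CDK9 cells (14; 9 without WT replicate 1, 8 without Tyr19Phe replicate 2), and fell from 17 to 8 in the direct comparison without both libraries with fewer genes. Signs turned only for values near 0 in the direct comparison, KCNQ1OT1 (-0.28 to 0.058 when each library was left out, above 0 without ALK inhibitor replicate 2, and 0.073 without both libraries) and TUG1 (-0.0078 to 0.064, below 0 without Tyr19Phe replicate 1). The cause of these changes was not tested. The replicate numbers did not pair the libraries, 1 of 9 libraries being closest to its own number in both other groups, and a replicate block left 0, 1 and 2 of the 9 RNAs called in the 3 comparisons, with MALAT1 at -0.39 against WT CDK9 cells. Depth limits PVT1 and KCNQ1OT1, at 44 to 173 counts per library, to intervals too wide to show changes of the size seen for MALAT1.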
